A study of Equus caballus with 4 samples.

Results

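The mRNA of 10 genes of the AMP-activated protein kinase (AMPK) and of its transcriptional partners was followed in differentiating equine satellite cells (ESC) exposed to the leucine metabolite β-hydroxy-β-methylbutyrate (HMB). The genes were the AMPK subunits *PRKAA1*, *PRKAA2*, *PRKAB1*, *PRKAB2*, *PRKAG1*, *PRKAG2* and *PRKAG3*, the coactivators *PPARGC1A* and *PPARGC1B*, and the nuclear receptor gene *ESRRA*. They were chosen by name, as every probe whose gene symbol in the array files was one of these, which gave 28 probes of 10 genes among the 13350 genes with a symbol on the array. Of the 28 probes, 25 gave enough signal to be tested, and these covered 9 of the 10 genes.

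The cells were muscle stem cells from the m. semitendinosus of colts of 6 months. They were preplated to lower possible contamination by fibroblasts and grown to near confluence before differentiation medium with 2% horse serum was given. HMB was added after day 2 of differentiation for 24 h, and control cells stayed in the same medium without it. The sample labels give the dose as 50 µg and the methods as 50 µM, and the description of each sample calls the treated cells GO-treated where its title says HMB. Both kinds of cells were hybridised together on each of 4 two-colour arrays of 1 slide (*n* 4), which the labels call biological replicates, from RNA with an integrity number of at least 9.2. HMB-treated cells were always in Cy5 and control cells in Cy3, so that any preference of a probe for a dye is part of its ratio. Which colts were on which array is not stated. Values below are log2 ratios of HMB-treated over control cells, so that a positive value stands for more mRNA with HMB, and errors are SD over the 4 arrays unless named otherwise. With so few arrays, the error of each ratio is itself poorly known.

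AMPK senses the energy state of a cell. It is built from a catalytic α, a scaffold β and a regulatory γ subunit, each encoded by more than 1 gene, and the γ subunit binds the adenine nucleotides whose balance switches the kinase on. In skeletal muscle the α2, β2 and γ3 forms are prominent, and the active kinase turns on fuel uptake and oxidation while it restrains the synthesis of lipid and protein. The coactivators PGC-1α (*PPARGC1A*) and PGC-1β (*PPARGC1B*) dock on nuclear receptors such as the oestrogen-related receptor α (*ESRRA*) and raise the transcription of mitochondrial and oxidative genes.

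The probes were 60 bases long. For each scaffold gene 1 probe is shown, because the genes are close relatives. The *PRKAB1* probe shown, at base 1270, is not its brightest, by which both genes are compared below. The stretch that these probes share lies in the coding sequence, and over the 46 bases in which they can be laid against each other 38 bases are identical (82.6%). Capitals mark the 8 bases that differ. The *PRKAB1* probe lies at chr8:14107629-14107688 and the *PRKAB2* probe at chrUn:269023001-269025158, an unplaced sequence, both on the minus strand of EquCab1, the genome build that the files name.
PRKAB1: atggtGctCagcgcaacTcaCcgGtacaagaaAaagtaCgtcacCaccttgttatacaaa
PRKAB2: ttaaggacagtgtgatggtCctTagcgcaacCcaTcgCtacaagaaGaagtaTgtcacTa

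The 5 probes of *PPARGC1B* overlap, and the outermost are shown to make plain that they read the same coding stretch of the mRNA. Capitals mark the 46 bases that all 5 probes hold. They lie at chr14:27335500-27335559, from base 2931 of the transcript, and at chr14:27335486-27335545, from base 2945, on the minus strand. Their values are therefore repeated readings of nearly the same sequence.
PPARGC1B: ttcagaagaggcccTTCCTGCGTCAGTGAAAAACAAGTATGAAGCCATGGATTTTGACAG
PPARGC1B: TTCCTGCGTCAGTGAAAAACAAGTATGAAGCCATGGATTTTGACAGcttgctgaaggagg

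The pair of *PRKAG2* probes that rose share no sequence. They start at bases 1360 and 1600 of the transcript and lie at chr4:92169986-92170377 and chr4:92158245-92158304, on the minus strand and in the coding sequence.
PRKAG2: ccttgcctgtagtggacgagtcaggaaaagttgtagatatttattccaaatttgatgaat
PRKAG2: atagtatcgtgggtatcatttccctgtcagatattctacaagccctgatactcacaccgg

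With HMB, the mRNA of the catalytic subunit *PRKAA2* and of the scaffold subunit *PRKAB2* fell, by mean log2 ratios of -0.54 ± 0.16 and -0.47 ± 0.11, and that of the coactivator *PPARGC1B* fell by less, at -0.28 ± 0.07. The mRNA of the regulatory subunit *PRKAG2* rose, at 0.34 ± 0.09. Their relatives *PRKAA1*, *PRKAB1*, *PRKAG1* and *PRKAG3*, and *ESRRA*, had ratios nearer to 0 by their brightest probes and were not past the threshold. In the test of each probe over the 4 arrays, with P values adjusted over the whole array (27384 tested probes) and called at 0.05, 12 of the 25 member probes passed, 9 lower and 3 higher in HMB-treated cells, but only 2 did so without array 2 or without array 3. Over all tested probes 22.8% passed, 11.6% lower and 11.2% higher. Taken by the brightest probe of each gene, 4 of the 9 tested members passed, 3 lower and 1 higher, where 22.6% of the 9285 tested genes with a symbol did, 11.1% lower and 11.4% higher. Without array 2 or without array 3 this count of genes was 2, and in a t-test of each probe on its own ratios it was 0. Of the 12 member probes, 5 belong to *PPARGC1B* and 2 to *ESRRA*, which overlap, so the count by gene is the fairer one. *PRKAB2*, *PPARGC1B* and *ESRRA*, and among the genes named further below *MYF5* and *LAMA2*, were picked by the study from these same arrays, and *PRKAA1* and *SOD2* stand in lists drawn from them, so that their ratios are not independent evidence of a change. As these are bulk samples, fewer cells of a type and less mRNA per cell cannot be told apart.

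**Figure D1:**
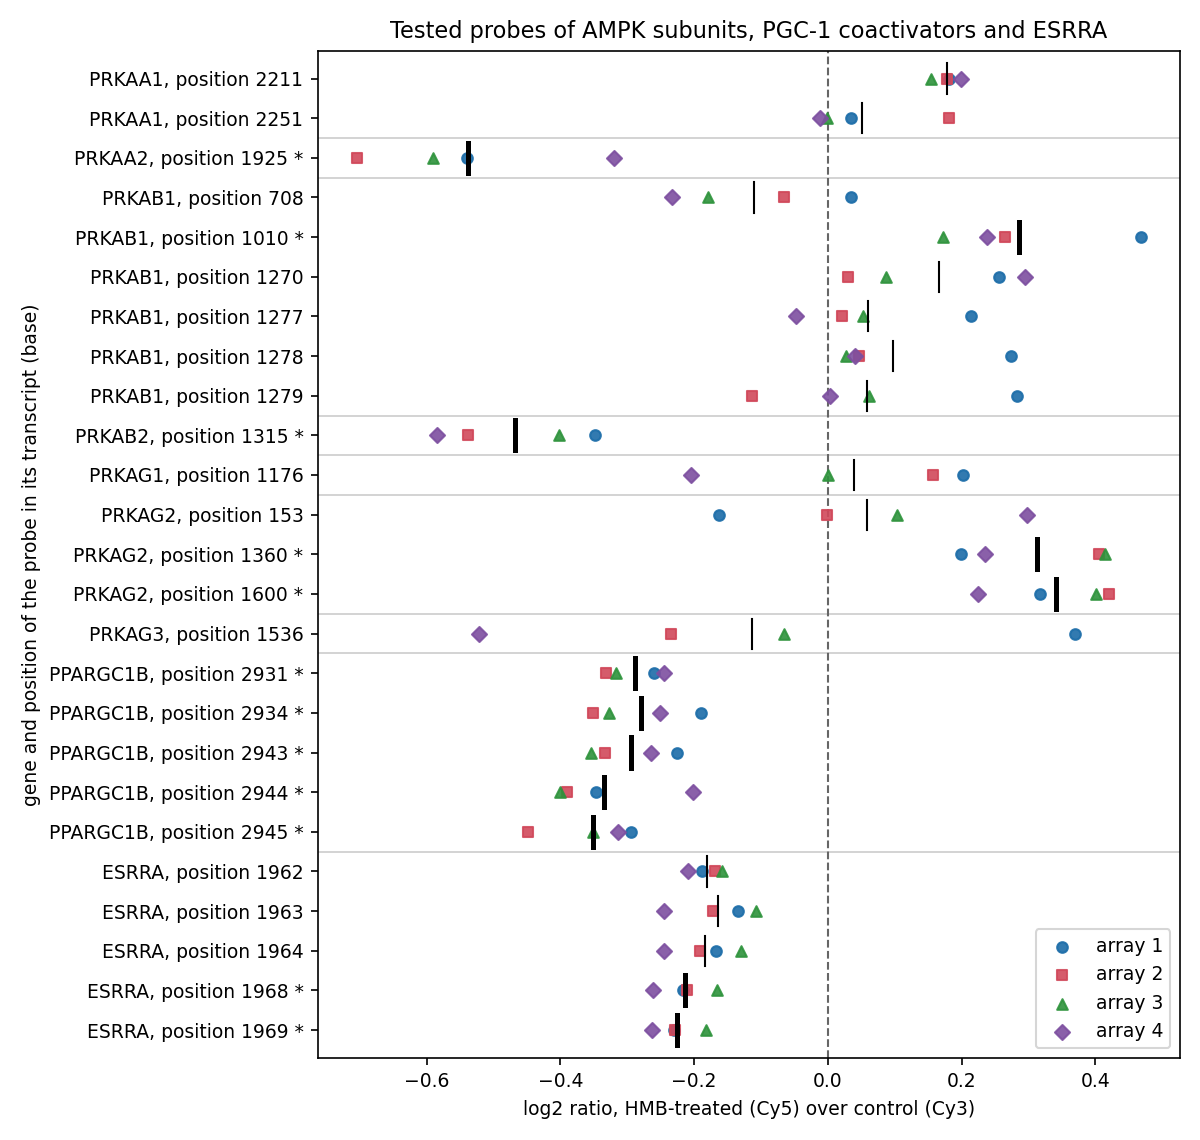
Log2 ratio of HMB-treated over control cells (horizontal axis) for each of the 25 tested member probes, named by gene and by the base of the transcript at which the probe starts. Symbols are the 4 arrays, vertical bars the means, and an asterisk with a thick bar marks the 12 probes past the threshold. All 20 values of *PPARGC1B* and all 20 of *ESRRA* lie below 0, in each case from 5 overlapping probes on 4 arrays. Of the 25 member probes 18 had 1 sign on all arrays, as had 46.4% of all 27384 tested probes.

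Of the catalytic subunits, *PRKAA2* (NM_001081941, chr2:1502662-1502721, minus strand) had 1 probe. Its deposited signal in control cells was 74.0, 89.7, 76.7 and 81.7 on arrays 1 to 4, and in HMB-treated cells 50.9, 55.0, 50.9 and 65.4. The highest HMB signal thus lay below the lowest control signal, and both channels were well above background on every array. By brightest probe *PRKAA2* was nevertheless the dimmest of the 4 members past the threshold. The log2 ratios were -0.54, -0.70, -0.59 and -0.32, lowest on array 2 and nearest to 0 on array 4. The mean of -0.54 is a fold change of -1.45 (95% confidence interval of the log2 ratio -0.73 to -0.35, adjusted P = 0.00747). Of the 9285 tested genes, 483 (5.20%) had a lower mean. The call held without each of the 4 arrays in turn. The size depended on the processing of the signals. The mean was -0.32 with both another background correction and another normalisation (normexp and loess, adjusted P = 0.0076), and -0.66 without lowess.

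The other catalytic gene, *PRKAA1* (NM_001081803, chromosome 21, plus strand), had 2 tested probes, which overlap and lie at chr21:21173757-21173816 and chr21:21173797-21173856. The brighter, at base 2251, had log2 ratios of 0.035, 0.18, -0.0020 and -0.012, a mean of 0.05 ± 0.09 (95% confidence interval -0.10 to 0.21, adjusted P = 0.599). Its mean was 0.030 with normexp and loess and changed sign, to -0.025, without lowess. The probe at base 2211 was positive on every array, at 0.18, 0.18, 0.15 and 0.20, with a mean of 0.18 ± 0.02 and an adjusted P = 0.0676. The overlapping probes thus gave nearly the same ratio on array 2 and different ones on arrays 1, 3 and 4. Array by array, the ratio of *PRKAA1* by its brighter probe was above that of *PRKAA2* by 0.57, 0.89, 0.59 and 0.31, a mean of 0.59 ± 0.24. The difference had the same sign on all 4 arrays, which gives an exact two-sided sign-flip P of 0.125, the smallest that 4 arrays allow. As dye preference is part of the ratio of each probe and this P cannot be lower with 4 arrays, the difference is given as a description.

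Of the scaffold subunits, *PRKAB2* (NM_001081914), whose probe sequence is given above, was printed as 5 spots on each array. Its mean signal in control cells was 2889, 2667, 2415 and 2315 on arrays 1 to 4, and in HMB-treated cells 2270, 1836, 1827 and 1543. The HMB signals lay below the control signals, without overlap. The log2 ratios were -0.35, -0.54, -0.40 and -0.59, with the weakest fall on array 1 and the strongest on array 4. Within an array the 5 spots were close together, with an SD of 0.0054, 0.027, 0.014 and 0.010, whereas the SD between arrays was 0.11. The spots of array 1 ranged from -0.35 to -0.34 and those of array 4 from -0.60 to -0.58. The mean of -0.47 is a fold change of -1.38 (95% confidence interval of the log2 ratio -0.63 to -0.30, adjusted P = 0.00735). A lower mean was found for 607 of the 9285 tested genes (6.54%). The call held without each array in turn, and the mean was -0.48 with normexp and loess and -0.44 without lowess.

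The 6 probes of *PRKAB1* did not give a single picture. The brightest lies downstream of the others, at chr8:14106554-14106613, and had log2 ratios of 0.035, -0.065, -0.18 and -0.23, a mean of -0.11 ± 0.12 (adjusted P = 0.290). The probe at chr8:14109507-14111653 was higher in HMB-treated cells on every array, at 0.47, 0.27, 0.17 and 0.24, with a mean of 0.29 ± 0.13 (adjusted P = 0.0346). With any array left out this call was lost, at adjusted P values of 0.0670, 0.126, 0.0824 and 0.0586 without arrays 1 to 4, and it was lost with normexp and loess and without lowess. The 4 overlapping probes that start between bases 1270 and 1279 had positive means between 0.06 and 0.17, and none passed in limma, with adjusted P values between 0.140 and 0.630. The means at bases 1277, 1278 and 1279 turned negative without lowess, that at base 1277 also with normexp and loess, and that at base 1279 also without array 1. On array 1 all 6 probes were positive, from 0.035 to 0.47, and on array 4 they ran from -0.23 to 0.29. Against *PRKAB2*, the brightest *PRKAB1* probe was higher by 0.38, 0.47, 0.22 and 0.35 on arrays 1 to 4, a mean of 0.36 ± 0.10 (exact sign-flip P of 0.125, the smallest possible). Every other *PRKAB1* probe had a higher mean than this probe.

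Of the regulatory subunits, *PRKAG2* (NM_001163984) had 4 probes spread along its transcript. At base 1600, where it was brightest, the control signal was 195, 223, 224 and 258 and the HMB signal 242, 298, 296 and 301 on arrays 1 to 4, so that the ranges overlapped between arrays although HMB was the higher on each. The log2 ratios were 0.32, 0.42, 0.40 and 0.23, with a mean of 0.34 ± 0.09, which is a fold change of 1.27 (95% confidence interval of the log2 ratio 0.19 to 0.50, adjusted P = 0.0158). At base 1360 they were 0.20, 0.41, 0.41 and 0.24, a mean of 0.31 with an adjusted P = 0.0235. Both probes were thus highest on arrays 2 and 3. Without array 2 the adjusted P of the brighter probe was 0.0870 and without array 3 it was 0.0759, both above the threshold, and the other probe was likewise not past it (0.120 and 0.107). The probe near the start of the transcript, at base 153 (chr4:92352963-92360226), had ratios of -0.16, -0.0012, 0.10 and 0.30, a mean of 0.06 (adjusted P = 0.653) whose sign changed with normexp and loess, without lowess and without array 4. The probe at base 521 was not well above background in either channel on any array and was not tested. The rise of *PRKAG2* was therefore read at its later positions, and the earliest position showed values of both signs.

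*PRKAG1* (NM_001163983, chr6:66896620-66896679, minus strand), which encodes the γ1 subunit, had 1 probe, with log2 ratios of 0.20, 0.16, 0.00076 and -0.20. Its mean was 0.04 ± 0.18 (95% confidence interval -0.16 to 0.24, adjusted P = 0.767). It was 0.018 with normexp and loess and 0.013 without lowess, and turned negative without array 1 or 2. *PRKAG3* (NM_001081915, chr6:8427963-8428203, minus strand), the γ3 gene of fast skeletal muscle, had ratios of 0.37, -0.23, -0.07 and -0.52, a mean of -0.11 ± 0.37 (95% confidence interval -0.45 to 0.22, adjusted P = 0.589). Its interval is the widest of the members, and its mean turned positive without array 4. For both genes array 1 gave the highest ratio and array 4 the lowest. The ratio of *PRKAG2* was above that of *PRKAG1* on all 4 arrays, by a mean of 0.30 ± 0.14 (exact P of 0.125), and above that of *PRKAG3* on 3 of 4, by 0.45 ± 0.36 (exact P of 0.25).

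Of the coactivators, *PPARGC1A* could not be measured. Neither of its 2 probes (ENSECAT00000009705, chr3:94308469-94308528 and chr3:94308530-94308589) was well above background in either channel on any of the 4 arrays, and no fold is given. *PPARGC1B* (ENSECAT00000021080) was measured by the 5 overlapping probes shown above. The brightest, at base 2934, had a control signal of 376, 389, 378 and 426 and an HMB signal of 330, 305, 301 and 358 on arrays 1 to 4, so that the HMB signals lay below the control signals without overlap. Its log2 ratios were -0.19, -0.35, -0.33 and -0.25, a mean of -0.28 ± 0.07, which is a fold change of -1.21 (95% confidence interval of the log2 ratio -0.43 to -0.13, adjusted P = 0.0241). The means of the 5 probes lay between -0.35 and -0.28, and all 5 passed. The mean of the 5 probes was -0.26, -0.37, -0.35 and -0.26 on arrays 1 to 4, with an SD over arrays of 0.06, and the SD between probes within an array was 0.061, 0.049, 0.033 and 0.040. Probes that hold nearly the same bases thus differed about as much as arrays did. Without array 2 or array 3 none of the 5 passed in limma, the brightest having an adjusted P = 0.131 and 0.110.

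The receptor gene *ESRRA* (ENSECAT00000016651, chromosome 12, plus strand) had 5 probes that start between bases 1962 and 1969, lie between chr12:14967370-14967429 and chr12:14967377-14967436 and have 53 bases in common. The brightest, at base 1963, had log2 ratios of -0.13, -0.17, -0.11 and -0.24, a mean of -0.16 ± 0.06 (95% confidence interval -0.31 to -0.02) and an adjusted P = 0.0961. The probes at bases 1968 and 1969 had means of -0.21 and -0.23 and adjusted P values of 0.0440 and 0.0365, and the remaining pair had adjusted P values of 0.0656 and 0.0685. All 5 were lower in HMB-treated cells on all 4 arrays, and over the probes the mean was -0.19, -0.19, -0.15 and -0.24 on arrays 1 to 4. The threshold thus runs through a set of probes whose means lie between -0.23 and -0.16. Without array 1, 2, 3 or 4 the probe at base 1969 had an adjusted P of 0.0656, 0.163, 0.121 and 0.0657, and without lowess the mean of the brightest was -0.079.

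**Figure D2:**
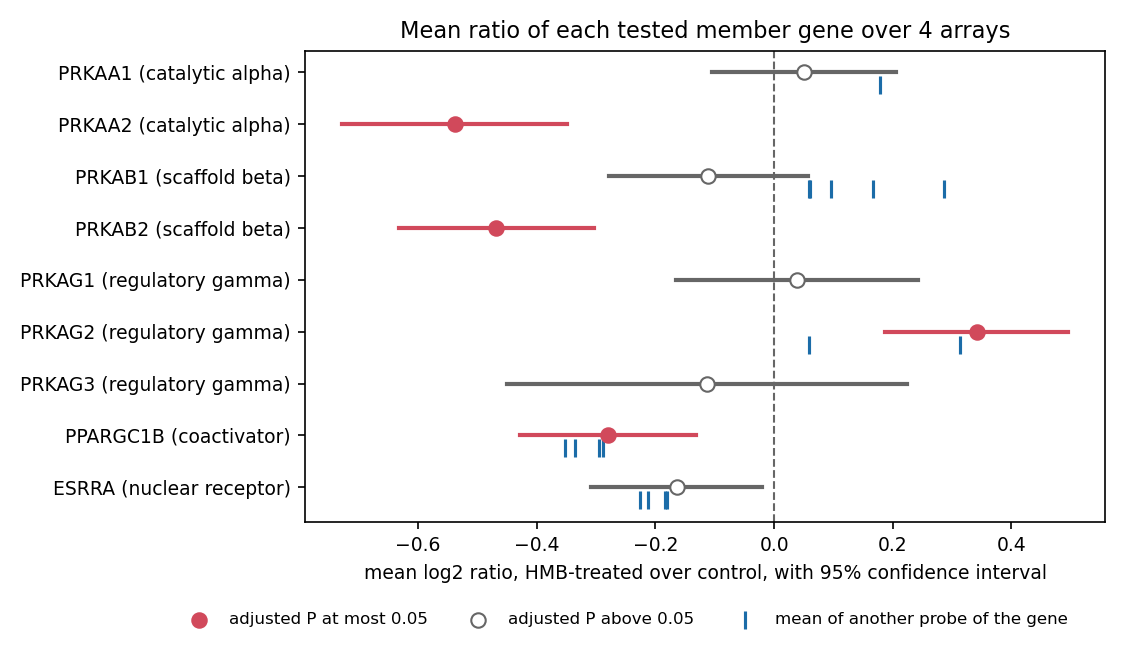
Mean log2 ratio of HMB-treated over control cells with its 95% confidence interval (limma) for the brightest tested probe of each of 9 member genes, *n* 4 arrays. Filled symbols are past the threshold, and short blue marks are the means of the gene's other tested probes. The other probes of *PRKAB1* all lie to the right of the brightest, and those of *PPARGC1B* and *ESRRA* to its left.

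In order of the mean ratio, the members ran from *PRKAA2* (-0.54) and *PRKAB2* (-0.47) over *PPARGC1B* (-0.28), *ESRRA* (-0.16), *PRKAG3* (-0.11) and *PRKAB1* (-0.11) to *PRKAG1* (0.04), *PRKAA1* (0.05) and *PRKAG2* (0.34). The order was made from these same means, which fixed the direction of each mean difference between neighbours, so the pairs are given as a description. Of the 8 neighbouring pairs in this order, 4 differed in the same direction on all arrays and by more than the SD of their difference. These were *PRKAB2* and *PPARGC1B* (0.19 ± 0.11), *PPARGC1B* and *ESRRA* (0.12 ± 0.10), *PRKAB1* and *PRKAG1* (0.15 ± 0.08), and *PRKAA1* and *PRKAG2* (0.29 ± 0.08), each with an exact P of 0.125, the smallest possible. The place of *PRKAB1* below *PRKAG1* rests on its brightest probe. By the mean of its probes *PRKAB1* was at 0.093, above *PRKAG1*. The other 4 pairs did not differ beyond their spread, among them *PRKAA2* and *PRKAB2* (0.07 ± 0.22). Over the 9 members the median log2 ratio was -0.11, and it was 0.035, -0.17, -0.11 and -0.24 on arrays 1 to 4. Over all tested genes with a symbol the median was 0.026.

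The other genes of the pathway were taken from 6 lists with 90 genes, of which 68 were tested by 1 probe each. In all, 15 of the 68 passed the threshold (22.1%), 6 higher and 9 lower in HMB-treated cells, with a median of -0.05. This share is close to the 22.6% of all genes, so that the lists as a whole did not stand out. The count was 4 without array 2, 4 without array 3 and 9 without array 4. It was 14 when both channels had to be bright, without *NRF1*, which entered the test only through the HMB channel. In the t-test of each probe none of these 15 genes passed (lowest adjusted P = 0.0589, for *TFB1M*). Whether the several probes of a gene overlap was not examined for the lists, so they may be repeated readings of the same sequence.

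Among the upstream kinases, partners and phosphatases of AMPK, 12 of 14 genes were tested, and 1 passed, with a list median of -0.03. This was *FNIP2*, which encodes a folliculin-interacting protein that binds AMPK, at 0.29 ± 0.08 (adjusted P = 0.0236), and all 3 of its probes passed. The call was lost without any 1 of the arrays, with adjusted P values between 0.0508 and 0.105, and without lowess, where the mean was 0.16, and the mean was 0.18 with normexp and loess. The upstream kinase gene *STK11* and the calcium-dependent kinase gene *CAMKK2* had mean ratios of 0.13 and 0.0061, neither past the threshold. *STRADA* and *PPM1E* had no probe by symbol.

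Among the substrates of AMPK, 14 of 17 genes were tested and 3 passed, 2 higher and 1 lower, with a median of -0.04. *SREBF1*, the gene of a transcription factor of lipid synthesis, rose by a mean of 0.54 ± 0.23 (adjusted P = 0.0144), with ratios of 0.24, 0.78, 0.66 and 0.47 on arrays 1 to 4. The call was lost when array 2 or array 3 was left out (adjusted P values of 0.0568 and 0.0609), and its mean was 0.15 with normexp and loess (adjusted P = 0.0933) and 0.32 without lowess (0.0517). *RPTOR*, which encodes the raptor subunit of the mTOR complex, was higher at 0.36 ± 0.24 (adjusted P = 0.0467), but lost its call without array 1, 2 or 4 (adjusted P between 0.106 and 0.122), with normexp and loess (0.19) or without lowess (0.19). *EEF2K*, the gene of the kinase that brakes translation elongation, was lower at -0.35 ± 0.14 (adjusted P = 0.0212), and lost its call without array 2, 3 or 4 (adjusted P between 0.0510 and 0.0931). The carboxylase gene *ACACA*, whose product is the classical substrate of AMPK, stood at 0.29 (adjusted P = 0.0862).

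Of 12 genes of AMPK-related kinases, which share the upstream kinase LKB1, 7 were tested and 1 passed, with a median of -0.08. *SIK1*, a salt-inducible kinase gene, fell on every array, with ratios of -0.46, -0.88, -0.67 and -0.50, a mean of -0.63 ± 0.19 and an adjusted P = 0.00653. It passed without each array in turn, and its mean was -0.29 with normexp and loess and -0.77 without lowess.

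All 13 genes of the regulators and docking partners of PGC-1 were tested, and 2 passed, both lower, with a median of -0.05. *NCOA1*, the gene of the steroid receptor coactivator SRC-1, had ratios of -0.46, -0.53, -0.62 and -0.84 on arrays 1 to 4, a mean of -0.61 ± 0.17 (adjusted P = 0.00537). All 5 of its probes passed, with means between -0.62 and -0.59, and the call held without each array in turn. *FBXW7*, which encodes a ubiquitin ligase subunit, was lower at -0.27 ± 0.14 (adjusted P = 0.0429), but lost its call without array 1, 2 or 3 (adjusted P between 0.100 and 0.176). The deacetylase gene *SIRT1*, at -0.09, and the acetyltransferase gene *KAT2A*, at -0.17, were not past it.

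Of 16 genes of nuclear receptors and mitochondrial transcription factors, 9 were tested and 5 passed, 3 higher and 2 lower, with a median of 0.09, beside the 22.6% of all genes. The count was 4 when both channels had to be bright, and 2, 2, 1 and 1 without arrays 1 to 4. The median was 0.18 without array 3, 0.044 with normexp and loess and 0.015 without lowess. Of the 3 higher genes, *NRF1*, the nuclear respiratory factor that works with PGC-1, was clear of background on all 4 arrays only in the HMB channel and on 3 in the control channel, so that it entered the test through the group in which it was the brighter. Its ratios were 1.16, 0.53, 0.70 and 1.23 on arrays 1 to 4, a mean of 0.91 ± 0.34, or 0.37 with normexp and loess. It is not tested when both channels must be bright, and its call was lost with no filter on dim probes (adjusted P = 0.0581), so that its values are given as a description. *RXRA*, the partner receptor of the PPAR, rose at 0.44 ± 0.24 (adjusted P = 0.0253), with all 5 of its probes past the threshold. The call was lost without array 2, 3 or 4 (adjusted P between 0.0680 and 0.0995) and with normexp and loess (0.18), and the mean was 0.28 without lowess. *PPARA* was lower at -0.33 ± 0.16 (adjusted P = 0.0310), and lost its call without array 1, 3 or 4 (adjusted P between 0.0689 and 0.122) or with normexp and loess (-0.18). The mitochondrial transcription factors went both ways, with *TFB1M* at 0.22 ± 0.05 (adjusted P = 0.0420) and *TFB2M* at -0.27 ± 0.13 (0.0418), neither of which passed without any 1 of the arrays (adjusted P between 0.0560 and 0.205 and between 0.0775 and 0.133). Of the 2 probes of *TFB1M*, 1 passed. *TFB2M* also lost its call with normexp and loess (-0.18, adjusted P = 0.0517) and with an intensity trend and robust variances (adjusted P = 0.0506). *TFAM* stood at 0.08 (adjusted P = 0.453). The receptor genes *ESRRB*, *ESRRG*, *PPARD* and *PPARG* were too dim to be tested.

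Of 18 target genes of PGC-1 and of the oestrogen-related receptors, 13 were tested and 3 passed, all lower, with a median of -0.09. The median turned sign without lowess (0.036) and without array 4 (0.0043). *CPT1B*, the muscle form of the enzyme that brings fatty acids into mitochondria, had ratios of -0.23, -0.83, -0.64 and -1.78, a mean of -0.87 ± 0.65 and an adjusted P = 0.0411. Array 4 had by far the lowest value, and the mean was -0.57 without it and -0.52 with normexp and loess. *CYCS* (cytochrome c) had a mean of -0.35 ± 0.12 (adjusted P = 0.0187), which turned to 0.036 without lowess, and *CKMT2* (mitochondrial creatine kinase of muscle) one of -0.31 ± 0.10 (adjusted P = 0.0217). None of these 3 passed in limma without array 2 or without array 3, with adjusted P values between 0.0900 and 0.101 for *CPT1B*, 0.0824 and 0.0847 for *CYCS* and 0.0702 and 0.0884 for *CKMT2*. The other 10 were not past the threshold by their brightest probe. Of these, *VEGFA* had 4 and *SOD2* 6 of 10 probes past it, all higher, while their brightest probes had means of 0.28 (adjusted P = 0.191) and 0.14 (adjusted P = 0.115). The glucose transporter gene *SLC2A4* had a mean of 0.18 (adjusted P = 0.0834).

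**Figure D3:**
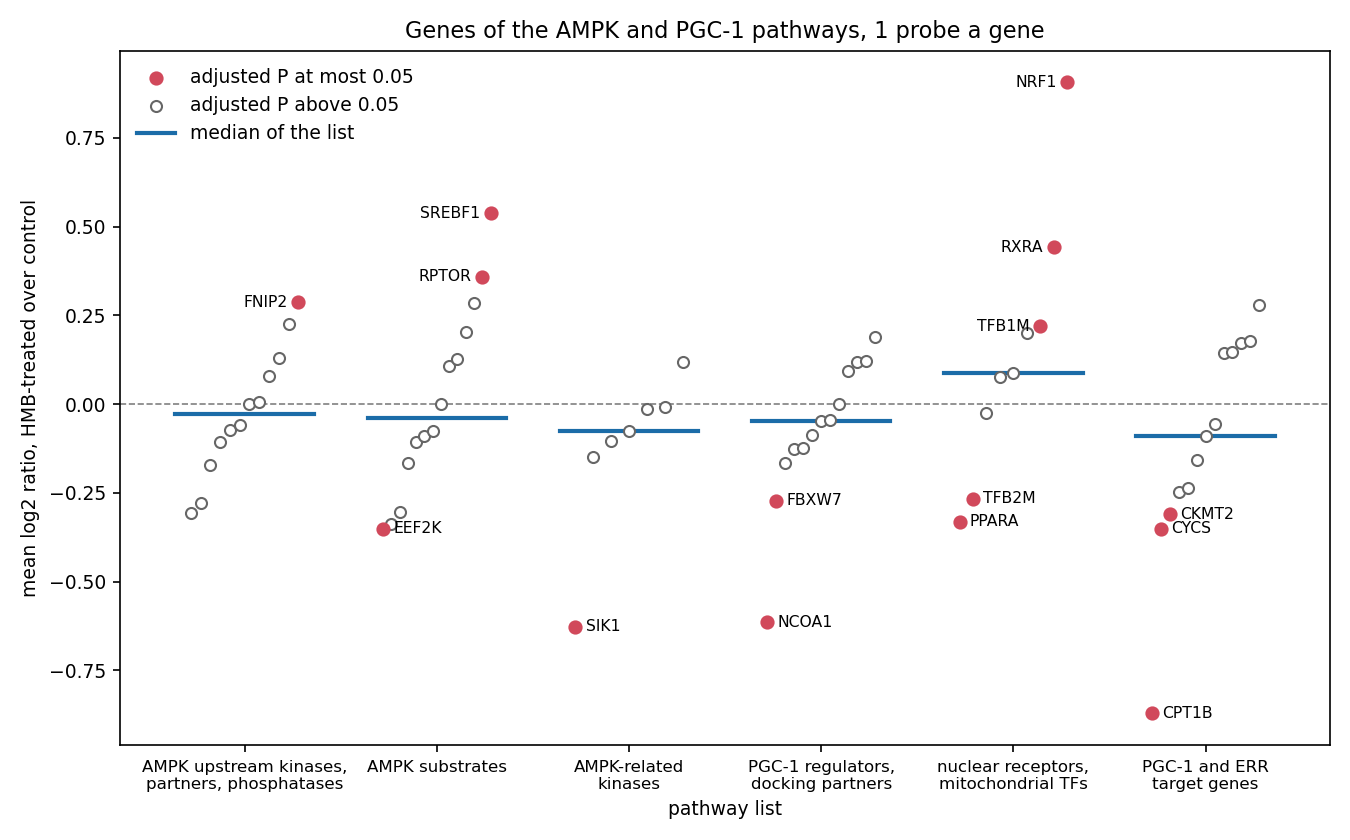
Mean log2 ratio of HMB-treated over control cells (vertical axis) for the 68 tested genes of 6 pathway lists, 1 probe a gene, *n* 4 arrays. Filled symbols with a name are the 15 genes past the threshold, and blue lines are the medians of the lists, which lie between -0.09 and 0.09. Of the 15, *NRF1* entered the test only through the HMB channel. The signs of *CYCS* and of the median of the PGC-1 target genes changed without lowess.

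The cell type of the labels was checked against markers. Of 12 myogenic markers 9 had a probe by symbol, namely *MYF5*, *MYOD1*, *MYOG*, *MYF6*, *DES*, *NCAM1*, *MYH3*, *CKM* and *ACTA1*, and none of the 9 was near background in either channel on any array. The satellite cell marker *PAX7* had no probe by symbol, nor had *CDH15* and *ITGA7*. Of 8 fibroblast markers, 6 were tested, so that mRNA of such cells, or of myogenic cells that share these genes, was present too. None of the adipocyte markers and none of the endothelial markers gave a tested probe in limma, with 4 genes of each on the array. Of the leukocyte markers *CD68* and *CD14* were tested, at -0.29 and 0.020, and neither passed.

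These markers moved with HMB as well. By their brightest probes, all 9 myogenic markers were lower and past the threshold, from *MYF6* at -0.28 to *MYH3* at -1.11. Their median was -0.90, and the medians on arrays 1 to 4 were -0.44, -0.80, -1.06 and -1.19. Their summed signal was 180409, 180932, 193671 and 201178 in control cells and 131079, 90278, 83147 and 75455 in HMB-treated cells, with *MYH3* as the brightest gene. The calls of *MYF6* (without any array, adjusted P between 0.0662 and 0.161) and of *MYOD1*, *MYOG* and *CKM* (without array 2, 3 or 4, adjusted P between 0.0503 and 0.101) depended on single arrays. Of the 2 probes of *MYOD1*, with means of -0.46 and -0.20, 1 passed. The call of *MYF6* was also lost with the array as a block (adjusted P = 0.0575) and with an intensity trend and robust variances (adjusted P = 0.0785). In the t-test of each probe none of the 9 passed (lowest adjusted P = 0.0507, for *MYF5*), and with no filter on dim probes only *MYF5* and *NCAM1* did, *DES*, *MYH3* and *ACTA1* having adjusted P values of 0.0582, 0.0683 and 0.0620. Without lowess the mean was -0.42 for *MYH3*, -0.43 for *ACTA1* and -0.46 for *MYF6*. With normexp and loess that of *MYF6* was -0.20. Of the fibroblast markers, *PDGFRA* (1.53 ± 0.47, adjusted P = 0.00358) and *FAP* (0.42 ± 0.18, adjusted P = 0.0185) were higher, and *COL3A1*, *DCN*, *THY1* and *LUM* were not past the threshold by their brightest probe, with a list median of 0.08. Of the 2 probes of *DCN*, with means of 0.15 and 0.39, 1 passed. *PDGFRA* stood at 0.89 with normexp and loess, and *FAP* lost its call without array 1, 2 or 3 (adjusted P between 0.0532 and 0.0806). Their summed signal was 182083, 177019, 191762 and 242890 in control cells and 232096, 173721, 179970 and 180960 in HMB-treated cells, with *COL3A1* as the brightest gene. The falls of *PRKAA2* and *PRKAB2* stood beside these shifts. The median of the myogenic markers was lowest on array 4, where *PRKAB2* was lowest and *PRKAA2* was nearest to 0. The part of the cell mixture and of the state of differentiation in the ratios of the members was not tested.

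**Figure D4:**
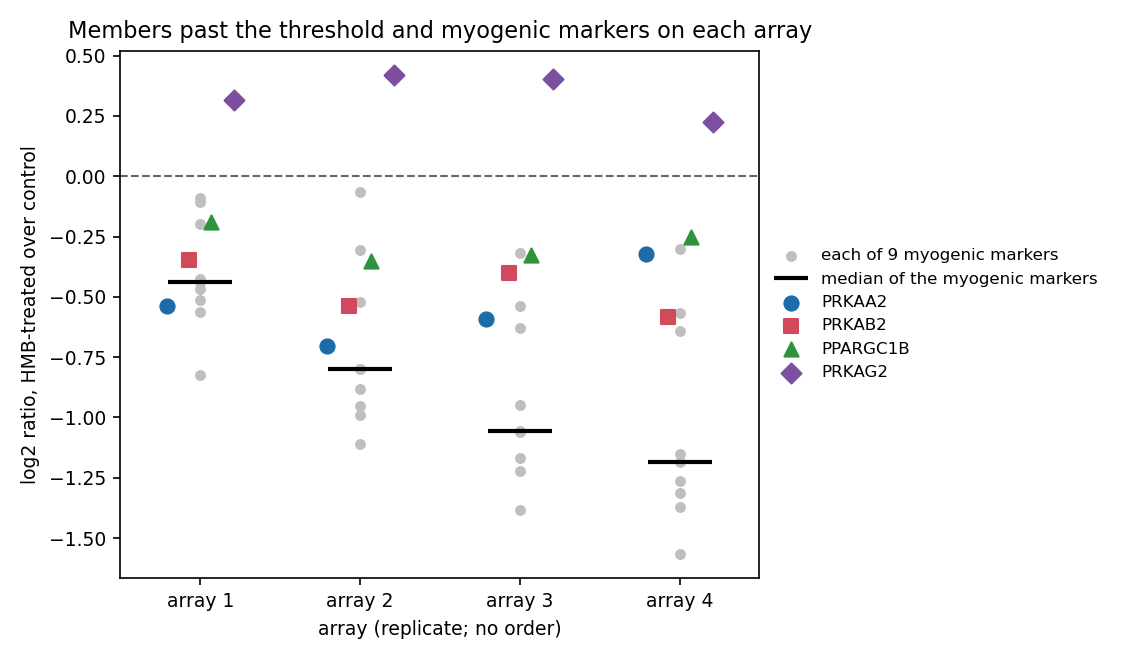
Log2 ratio of HMB-treated over control cells (vertical axis) on each of the 4 arrays for the 4 members past the threshold, by their brightest probe, beside the 9 tested myogenic markers (grey) and their median (black line). *PRKAG2* lies above 0 on every array and *PRKAA2*, *PRKAB2* and *PPARGC1B* below it, while the median of the markers runs from -0.44 on array 1 to -1.19 on array 4.

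As reported, *PRKAA2* had the largest mean ratio in size of the members past the threshold. With normexp and loess that was *PRKAB2*, at -0.48 against -0.32 for *PRKAA2*. The genes whose ratios were most like those of *PRKAA2* were sought by the root mean square difference over the 4 arrays among 9280 genes. They were *SCUBE3* (difference 0.093, mean ratio -0.47), *LAMA2* (0.10, -0.50), *FAM107A* (0.10, -0.62), *ZEB2* (0.11, -0.47) and *SUGP2* (0.11, -0.54). *FAM107A*, for example, had ratios of -0.65, -0.77, -0.75 and -0.32 on arrays 1 to 4. Each of the 5, like *PRKAA2*, had its value nearest to 0 on array 4, which follows from how they were sought.

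The calls of the members depended on the test. With a t-test in which each probe is judged by its own 4 values, 0 of the 9 member genes passed by the brightest probe, with a lowest adjusted P of 0.0632, although 5 had a P under 0.05 before adjustment in it and 5 had in limma. Of all 27384 probes it passed 768, and of the 25 member probes it passed 4, at base 2211 of *PRKAA1*, base 2931 of *PPARGC1B* and bases 1962 and 1969 of *ESRRA*, whose ratios were small but varied little. With both channels as separate samples and the array as a block, 7109 of all probes and 12 member probes passed, and *PRKAA2* (adjusted P = 0.00122), *PRKAB2* (0.00313), *PRKAG2* (0.00823) and *PPARGC1B* (0.00874) were past the threshold.

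**Figure D5:**
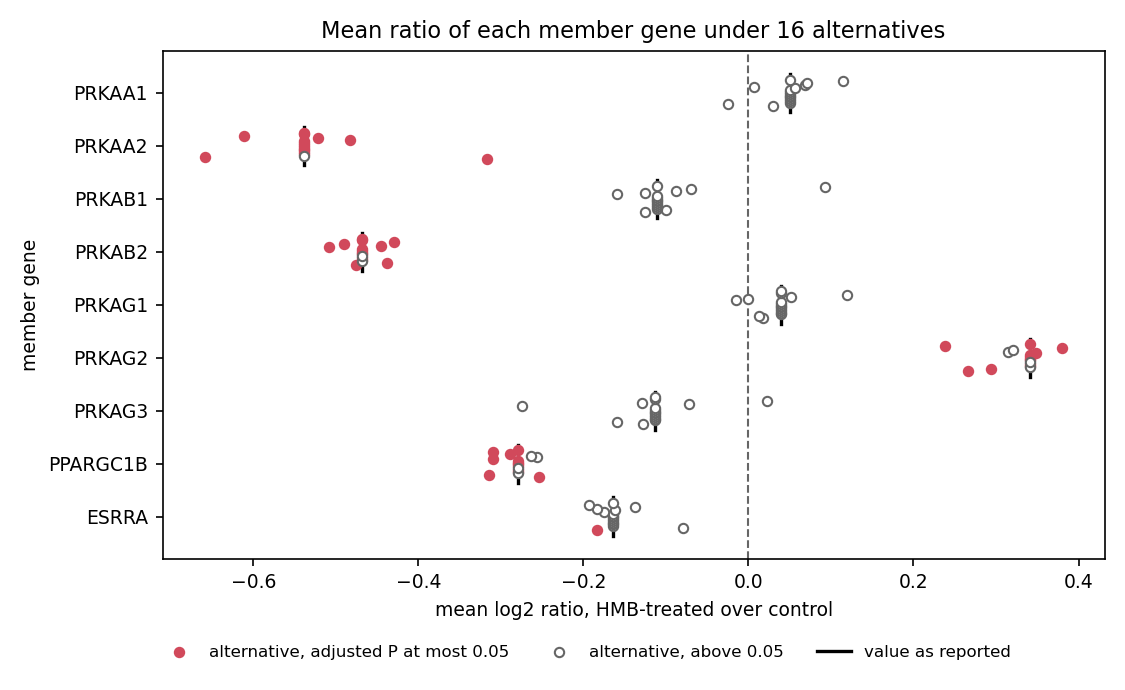
Mean log2 ratio of HMB-treated over control cells (horizontal axis) of each member gene under 16 alternatives of processing, test or arrays, with the value as reported as a black line. Filled symbols are past the threshold. Alternatives that change only the test, the filter or the symbols leave the mean as it is, and *PRKAA1*, *PRKAB1*, *PRKAG1* and *PRKAG3* take both.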

How the data were processed

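The authors hybridised cRNA of HMB-treated (Cy5) and control (Cy3) cells to 4 arrays and made the spot values with Feature Extraction 10.10.1.1, as the deposited files name it, where the methods name another version. The deposited raw and processed intensity values are the mean signal, the local background, and the background-subtracted and dye-normalised signal of a spot. The deposited log10 ratios were made by the authors with linear and lowess normalisation, and the deposited value table holds the same log10 values. The other deposited columns are marks of 0 or 1 for spots above background, non-uniform or outlying.

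The log10 ratios were turned into log2 ratios (factor 3.32), control and marked spots were left out, and repeated spots were averaged into 1 value for each probe. Tests were restricted to probes for which the same channel exceeded background clearly on every array, with values from 3 arrays or more. This left 27384 probes, with 16219 below the filter. The mean ratio was tested against 0, two-sided, with limma 3.58.1 in R 4.3.3 (empirical Bayes), adjusted after Benjamini and Hochberg over all tested probes, with a threshold of 0.05. Each gene stands by the brightest of its tested probes, and an older symbol was used only where the array had none of the current symbol. Differences between members were tested by exact sign flips. Tables were made with Python 3.11.15, numpy 2.4.6, pandas 2.3.3 and the R package data.table (version 1.17.8), and matplotlib 3.10.9 drew the figures. Simulated data served to check the code.

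Named are all members, the genes of the pathway lists past the threshold with a few well-known others chosen after their values were seen, the marker genes, and the 5 genes most like *PRKAA2*. The members and lists were chosen with earlier results of these data known. As alternatives, limma's normexp (offset 50) replaced the background correction before loess, ratios were centred by array without lowess, each probe had a t-test of its own ratios, limma was given a trend and robust variances, and channels were fitted separately, either with the array as a replicate block or unpaired. Further alternatives tested every probe, required both channels to be bright, retained marked spots, or used the value table, left out each array, averaged a gene's probes, asked for at least 1.3-fold, or took symbols from RefSeq as well.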

Additional observations from a re-analysis of the deposited data

Results flagged for a closer look

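On array 1, the *PRKAB1* probe at transcript base 1278 had a log2 ratio of 0.27, far from its ratios of 0.046, 0.027 and 0.041 on arrays 2 to 4. The overlapping probes at bases 1277 and 1279 were also highest on array 1, at 0.21 and 0.28. On array 2, *FNIP2* had a log2 ratio of 0.17, below its ratios of 0.32, 0.33 and 0.33 on arrays 1, 3 and 4. In all, 60 sets of 4 values were examined, and chance alone sets 1 in 20 apart in this way, so that 2 are no more than chance gives.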

How the results depend on the processing

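With a t-test of each probe on its own ratios, 768 probes, 4 member probes, 0 member genes and 1 pathway gene passed, against 6257, 12, 4 and 15 as reported. That pathway gene was a target gene of PGC-1 and of the oestrogen-related receptors and was not among the 15. With separate channels and no pairing, 2226 probes, 4 member probes, 1 member gene and 3 pathway genes passed, and 29.9% of the called probes were higher in HMB-treated cells against 49.1% as reported. With no filter on dim probes, 3690 probes and 8 pathway genes passed. With a minimum of 1.3-fold, 3863 probes, 2 member probes, 2 member genes and 6 pathway genes passed. Leaving out 1 array gave between 2573 and 4957 probes, 2 and 9 member probes, 2 and 4 member genes, and 4 and 14 pathway genes, the lowest without array 2 (probes) and without array 2 or 3 (the others), and the cause was not tested. With separate channels and the array as a replicate block, 7109 probes and 12 member probes passed.

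The sign of a mean could turn only where the alternative altered the ratios, arrays or probes used, and there it did not for *PRKAA2*, *PRKAB2*, *PPARGC1B*, *PRKAG2* and *ESRRA*. Of 16 alternatives, past the threshold were *PRKAA2* in 15, *PRKAB2* in 14, *PPARGC1B* and *PRKAG2* in 12 and *ESRRA* in 1, with normexp and loess (-0.18, adjusted P = 0.0415, over a range from 0.0415 to 0.414). Signs turned only in means near 0 or without lowess. Without lowess, *PRKAA1* was at -0.025 and *CYCS* at 0.036. With the mean of its probes, *PRKAB1* was at 0.093. Leaving out 1 array put *PRKAG1* between -0.015 and 0.12 and *PRKAG3* between -0.27 and 0.023. The list median turned sign for the AMPK substrates (0.054 with both channels bright) and the PGC-1 regulators (0.013 without array 4). For the PGC-1 target genes it was 0.036 without lowess and 0.0043 without array 4. The cause of these turns was not tested.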

Other observations

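The array carried 10 probes of *VEGFA* and 10 of *SOD2*, and these readings of the same genes fell on both sides of the threshold. The means of the *VEGFA* probes lay between 0.28 and 0.59 and those of *SOD2* between 0.14 and 0.36, in each case with the brightest probe the lowest. Of the 3 probes of *CREB1*, whose product drives *PPARGC1A* transcription, 1 passed, at a mean of 0.24, and the brightest, at 0.09, did not.

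The fatty acid binding protein gene *FABP3* had log2 ratios of -0.14, 0.22, 0.41 and -1.12 on arrays 1 to 4, a mean of -0.16 with an SD of 0.68, with the lowest value on array 4, as for *CPT1B*. Of the 25 tested member probes, 5 were highest on array 1 and lowest on array 4 (20%), and of all 27369 tested probes with 4 values 5206 were (19.0%). The reverse order was found for 1 member probe (4%) and for 4921 of the 27369 tested probes with 4 values.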
